A study of Mus musculus with 36 samples.

Results

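Smooth muscle contractile genes were followed through control and tumor-bearing salivary glands of the mouse. The 7 genes were Acta2, Actg2, Myh11, Myl9, Mylk, Tagln and Cnn1, a list given by name and chosen with earlier results of these data known, and all 7 had a unique molecular identifier (UMI) in the single-cell tables, which list 29502 genes with a UMI. The cells in which they were read were myoepithelial, pericyte, fibroblast and basal cells, named from other markers. The main assay was Drop-seq of single cells, in which a cell shares a droplet with a barcoded bead and each captured transcript is counted at its 3′ end by its UMI, and it covered 26 submandibular glands. A further 4 glands, taken at P70, were measured by CITE-seq, in which surface proteins are read together with RNA, and 2 glands by bulk mRNA-seq with 46407 genes in the tables, a control taken at P70 and a double mutant at P100. The genotype of controls was K14-Cre with the R26-EYFP reporter that Cre switches on. Double-mutant mice carried these together with the β-catenin gain-of-function and the Bmpr1a loss-of-function flox alleles, and all mice had a C57BL/6 background. Cre was driven by the promoter of keratin 14, a keratin of basal and myoepithelial cells, and control glands carry Cre as well. Of the Drop-seq glands, 12 were controls (6 taken at P40 and 6 at P90) and 14 double mutants (7 taken at P40 and 7 at P90), from mice of both sexes.

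In smooth muscle and in myoepithelial cells, a rise in calcium activates the myosin light chain kinase encoded by Mylk, which phosphorylates the regulatory light chain encoded by Myl9, and the heavy chain encoded by Myh11 then pulls on filaments of the actins encoded by Acta2 and Actg2. Tagln (SM22) and Cnn1 (calponin) encode proteins that bind the actin filament. In salivary glands, myoepithelial cells embrace acini and ducts and squeeze saliva out, while pericytes and vascular smooth muscle cells surround the vessels, so that the genes mark an epithelial and a mesenchymal cell type at once. Many promoters of this program hold CArG boxes, to which serum response factor binds.

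In the GRCm38 annotation, Acta2 lies on the minus strand at chr19:34241090-34255590 and Actg2 on the minus strand at chr6:83512905-83536265. Myh11 lies on the minus strand at chr16:14194535-14291372, Mylk on the plus strand at chr16:34745210-35002420 and Myl9 on the plus strand at chr2:156775420-156781658. Tagln lies on the minus strand at chr9:45929619-45936058 and Cnn1 on the plus strand at chr9:22099216-22109630. Mylk also gives a long non-muscle kinase and the short protein telokin from a shared 3′ end, which counts of 3′ ends do not separate. The proteins encoded by Acta2 and Actg2 are nearly identical, and whether any bulk reads were assigned to the wrong one of these genes was not tested.

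RefSeq promoters (GRCm38.p6) were matched for 4 of the 7 genes, Acta2, Myl9, Mylk and Cnn1, and Tagln, Myh11 and Actg2 are named only. The 250 bases before the RefSeq start of Acta2 (chr19:34255374-34255623, minus strand) and of Myl9 (chr2:156775214-156775463, plus strand) are shown because they hold CArG boxes or a looser form of them, and that of Cnn1 (chr9:22099003-22099252, plus strand) because its levels set myoepithelial-like and pericyte-like cells apart and it holds none. Capitals mark a CArG box or a CArG box with 1 G or C in its core.
Acta2: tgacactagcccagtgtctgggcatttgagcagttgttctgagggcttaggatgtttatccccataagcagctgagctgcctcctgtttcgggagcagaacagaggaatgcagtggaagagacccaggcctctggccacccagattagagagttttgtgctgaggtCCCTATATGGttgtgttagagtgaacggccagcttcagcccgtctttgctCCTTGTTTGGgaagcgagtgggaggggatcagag
Myl9: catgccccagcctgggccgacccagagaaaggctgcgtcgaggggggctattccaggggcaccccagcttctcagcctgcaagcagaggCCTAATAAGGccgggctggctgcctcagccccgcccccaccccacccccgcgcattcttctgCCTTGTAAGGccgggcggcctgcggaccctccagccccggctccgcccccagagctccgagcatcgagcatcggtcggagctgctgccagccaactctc
Cnn1: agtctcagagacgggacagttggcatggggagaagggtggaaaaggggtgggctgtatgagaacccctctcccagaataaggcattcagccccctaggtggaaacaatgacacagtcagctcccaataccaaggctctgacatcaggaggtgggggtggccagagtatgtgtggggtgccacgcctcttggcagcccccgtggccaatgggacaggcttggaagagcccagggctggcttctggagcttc
The box of Myl9 begins 161 bases before the start (CCTAATAAGG, at −161), and a box with 1 G or C in its core follows at −99 (CCTTGTAAGG). Acta2 holds that looser form at −84 (CCCTATATGG) and at −34 (CCTTGTTTGG). Both strands were searched, and both forms read the same way on either strand. The strict box was found in 1.47% of 32851 promoters of this length and the looser form in 7.24%. The TEAD site GGAATG, searched on both strands, was found in the windows of Acta2 (at −146) and Mylk (at −158, as CATTCC) and in 12.6% of all promoters. A match of letters is a description of the window and not a measured binding site.

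Depth differed between groups. Over all deposited barcodes, controls had 2585638 to 7013325 UMIs per gland at P40 and 1700712 to 2578743 at P90, and double mutants 836431 to 6522928 at P40 and 777537 to 4181402 at P90. The median cell held 2892, 1341, 1570 and 766.5 UMIs in the same order, and 23346 cells were kept. In all Drop-seq and CITE-seq libraries, 20 barcode sequences occurred in 2 or more libraries. The sex labels of 2 double-mutant libraries of the same batch went against their Xist and Y-linked UMIs in opposite directions. The library labelled P40 replicate 1 (male) held 708 Xist and 1 Y-linked UMIs, and the library labelled P90 replicate 5 (female) held 1 and 225. An exchange of these libraries was not tested, and it would also exchange their stages but not their genotype. Moreover, double mutant P40 replicate 2 held the highest levels of 6 of the 7 genes. Whole-gland fits were also computed without these libraries. Single glands were left out in turn in the genotype fits of myoepithelial-like and pericyte-like cells and in the contrast between these types. The genotype fits of basal-like and fibroblast-like cells and the other contrasts between types were not computed without these libraries. The 3′ tags of Ctnnb1 and Bmpr1a lie outside the floxed exons and check nothing about the alleles. Axin2, a target of Wnt signaling, ranged from 0 to 3.44 CPM in control glands and from 1.69 to 79.5 CPM in double-mutant glands, where CPM are UMIs per 1000000 of the gland's kept cells (log2 fold change 3.33, SE 0.49, adjusted p = 9.85e-05 by edgeR).

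Cell types were found by clustering with the 7 genes and the other contractile genes held out. A sub-cluster of 206 cells, 76 of control and 130 of double-mutant origin, was myoepithelial-like, with 10 of 14 markers of its list raised, among them Krt14, Krt17, Krt5, Trp63, Pcp4 and Igfbp2, while Oxtr was at 0. A cluster of 189 cells (72 and 117) led by Rgs5 was pericyte-like, with 8 of 12 markers, and may hold vascular smooth muscle cells, which the list does not separate. The fibroblast-like cluster held 413 cells (67 and 346) with 11 of 12 markers. Basal-like cells numbered 1309 (396 and 913). They fell into a sub-cluster led by Krt42, Sostdc1 and Wif1 with 594 cells, 588 of them from double-mutant glands, a sub-cluster led by Ucma with 395 cells, 253 of them from control glands, and 2 smaller ones. Both lists were checked across the types: the pericyte markers summed to 26.3 CPM, here per 1000000 UMIs of the type, in myoepithelial-like and 3840 in pericyte-like cells, with 8 of 12 at 0 in the former, and the myoepithelial markers summed to 7352 and 382 CPM in the same order. Toward basal-like cells the lists separated less: the myoepithelial markers summed to 5912 CPM in Wif1-led basal cells, and the basal markers to 4603 CPM in myoepithelial-like and 4636 CPM in all basal-like cells. The sub-clustering was chosen with the levels of the 7 genes in view, so that the contrasts with myoepithelial-like cells below are not independent of them.

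The UMIs of 6 of the 7 genes, all but Actg2, came mainly from myoepithelial-like and pericyte-like cells, which were rare: myoepithelial-like cells were 0.707% of the cells of control and 1.03% of those of double-mutant glands, and pericyte-like cells 0.670% and 0.928%. With glands pooled, myoepithelial-like cells held 46.03% of the Acta2 UMIs of control and 48.5% of those of double-mutant glands, and pericyte-like cells 22.1% and 29.1%. Single glands varied widely, over 11 of each genotype with at least 10 Acta2 UMIs. The myoepithelial-like share was 0% to 73.9% and 5.56% to 75.3%, and the pericyte-like share 2.68% to 62.2% and 8.53% to 52.2%. For Cnn1 the division was uneven, with 62.1% and 70.4% of the UMIs in myoepithelial-like and 3.65% and 6.996% in pericyte-like cells. For Myl9 it ran the other way, with 28.2% and 30.2% in myoepithelial-like and 46.01% and 46.66% in pericyte-like cells. Myh11 and Tagln were split more evenly, with 42.6% and 40.5% of Myh11 and 39.4% and 33.8% of Tagln in myoepithelial-like cells against 32.2% and 42.6% and 30.1% and 41.4% in pericyte-like cells. Mylk had 42.1% and 41.9% in myoepithelial-like and 19.8% and 25.7% in pericyte-like cells. Actg2 had 69 UMIs in all 26 glands, of which 33.3% and 52.8% lay in myoepithelial-like and 0 and 2.78% in pericyte-like cells, while ductal-like cells held 21.2% and basal-like cells other than the Wif1-led ones 18.2% of those of control glands. Of the 19 Actg2 UMIs of double-mutant myoepithelial-like cells, 14 came from 7 cells of double mutant P40 replicate 3, and without that gland the share was 23.8% (5 of 21 UMIs). Without the same gland the double-mutant myoepithelial-like share was 41.3% for Acta2 and 64.7% for Cnn1.

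**Figure D1:**
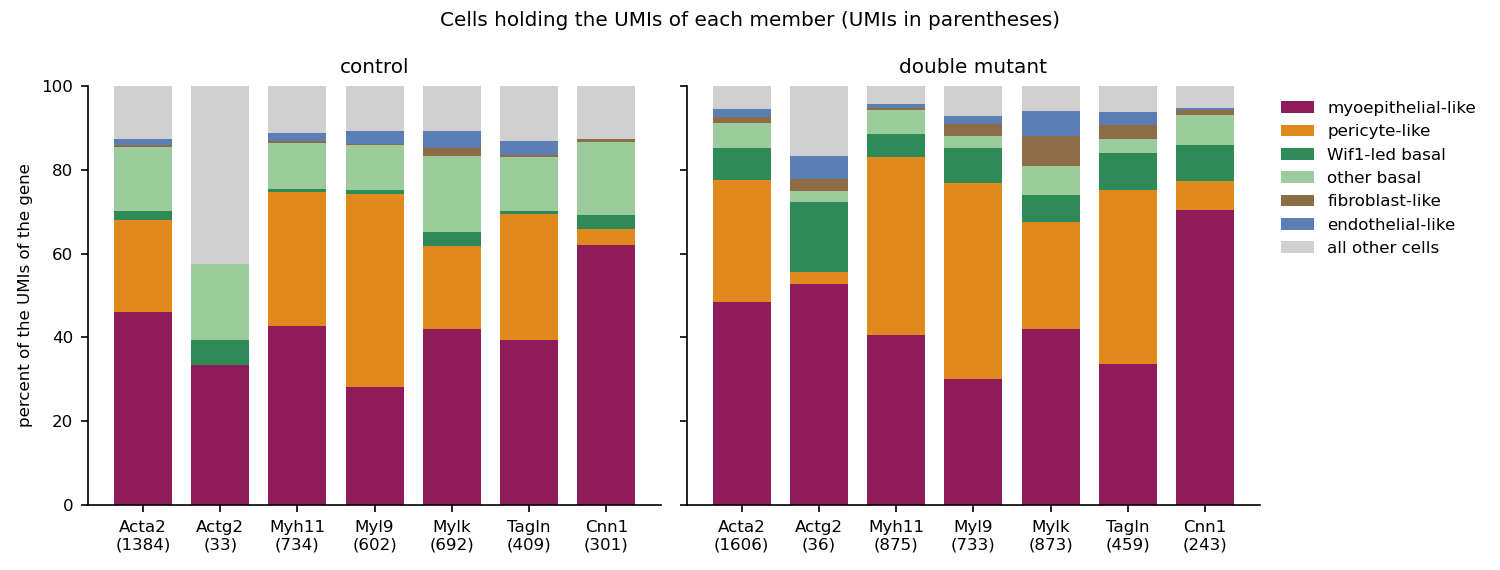
Share of the UMIs of each gene, in percent, that came from each cell type, for the 12 control glands and the 14 double-mutant glands with the cells of each genotype pooled. Myoepithelial-like and pericyte-like cells hold the larger part of most bars although they are at most 1.03% of the cells each, and the pericyte-like part of Cnn1 is 3.65% and 6.996%.

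The actins were read first. In myoepithelial-like cells Acta2, the smooth muscle α-actin, had 7037, 7699, 7853 and 9131 CPM in the 4 control glands with at least 10 such cells and 1392, 3602, 4012, 7078 and 9427 CPM in the 5 double-mutant glands. The control glands lay close together, whereas the double-mutant glands spread on both sides of them. The lowest value rests on 5 UMIs in 11 cells of double mutant P90 replicate 4. In pericyte-like cells, Acta2 had 1510 and 6235 CPM in the 2 control glands with enough cells and 2292, 2391, 3291, 5054 and 7977 CPM in 5 double-mutant glands, so that the genotypes overlapped here too. In Wif1-led basal cells of 9 double-mutant glands Acta2 ranged from 218 to 479 CPM with a median of 285. In Ucma-led basal cells it ranged from 0 to 60.2 CPM over 4 control glands, with 4 UMIs in all.

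Actg2, the smooth muscle γ-actin of gut and bladder, was near the limit of detection. In myoepithelial-like cells it had 7 UMIs in the 4 control glands, from 0 to 375 CPM, and 4 UMIs in the 5 double-mutant glands, from 0 to 173 CPM. In pericyte-like cells, 6 of 7 glands had no UMI and 1 double-mutant gland had 1. Over all 189 pericyte-like cells this gave 3.35 CPM with a 95% counting interval from 0.0848 to 18.7, against 158 CPM (107 to 226) over all 206 myoepithelial-like cells, where intervals cover counting error only. Without the 7 cells of double mutant P40 replicate 3 the latter value was 90.6 CPM (51.8 to 147, 16 UMIs).

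**Figure D2:**
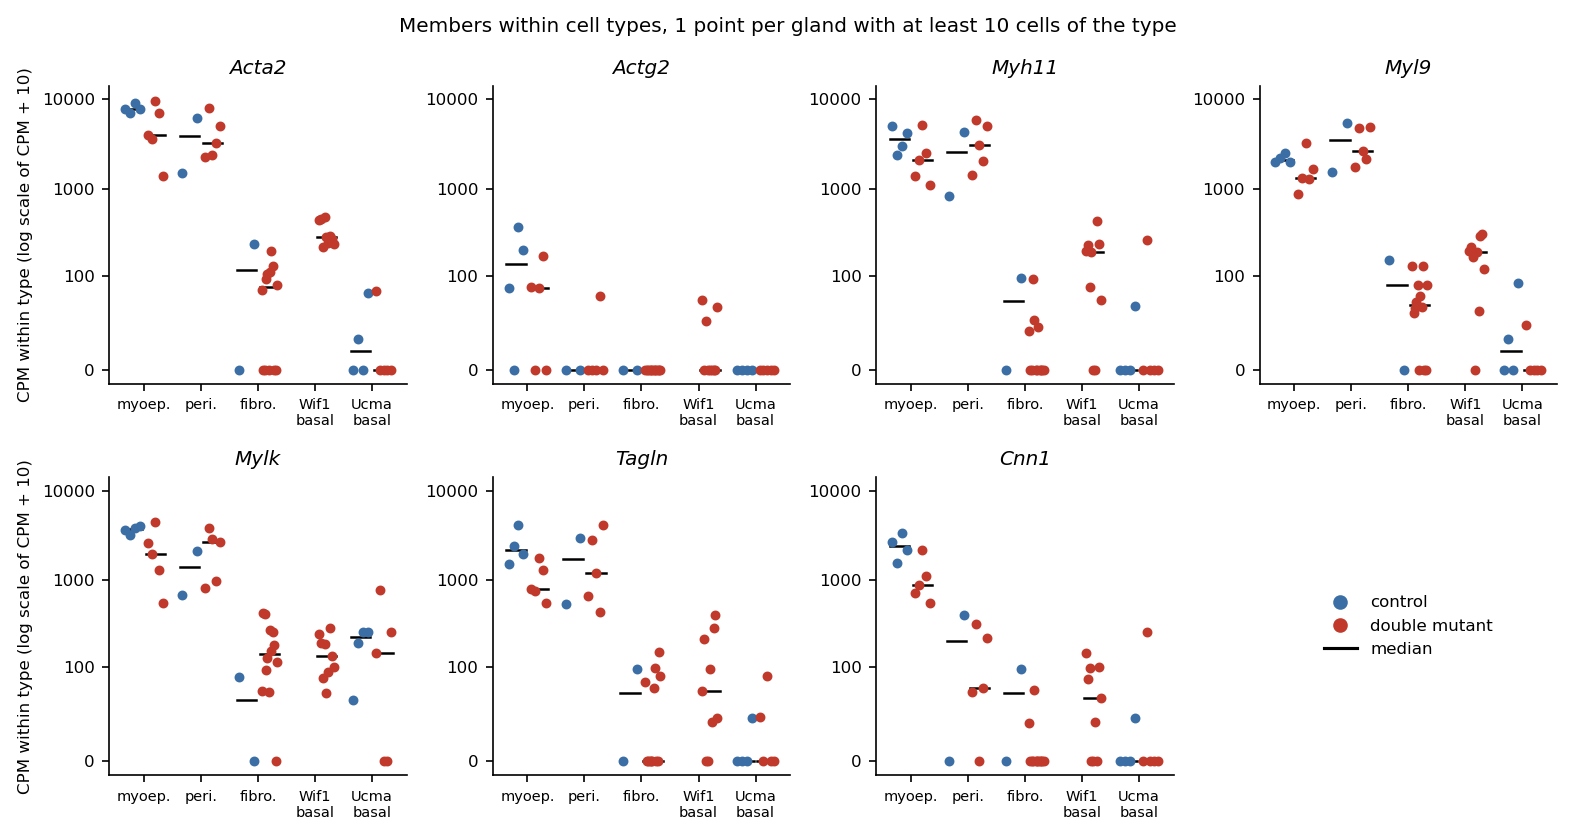
CPM of each of the 7 genes per gland on a log scale of CPM + 10, in myoepithelial-like, pericyte-like, fibroblast-like, Wif1-led basal and Ucma-led basal cells, each point 1 gland with at least 10 cells of the type, colored by genotype. For Acta2 the myoepithelial-like points lie between 1392 and 9427 CPM and the Wif1-led basal points between 218 and 479 CPM.

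The myosin genes were high in both contractile types. Myh11, the smooth muscle myosin heavy chain, had 2396, 3002, 4156 and 5003 CPM in myoepithelial-like cells of control and 1114, 1386, 2091, 2503 and 5174 CPM in those of double-mutant glands. In pericyte-like cells Myh11 had 824 and 4293 CPM in control and 1433, 2029, 3109, 5054 and 5890 CPM in double-mutant glands. Control glands thus lay inside the range of the double-mutant glands in myoepithelial-like cells, and only the lower control gland fell outside it in pericyte-like cells. Myl9, the regulatory light chain, had 1976, 2015, 2193 and 2502 CPM in myoepithelial-like cells of control and 875, 1295, 1335, 1671 and 3260 CPM in those of double-mutant glands. In pericyte-like cells Myl9 had 1533 and 5418 CPM in control and 1767, 2139, 2630, 4730 and 4942 CPM in double-mutant glands. In 4 of the 5 double-mutant glands Myl9 of myoepithelial-like cells was below every control gland. Of these glands 3 of the 4 controls were taken at P90 and 4 of the 5 double mutants at P40, so that genotype and stage can hardly be told apart in myoepithelial-like cells, although the fit below has a term for each.

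Mylk, the light chain kinase, had 3212, 3614, 3877 and 4088 CPM in myoepithelial-like cells of control and 557, 1295, 1990, 2626 and 4465 CPM in those of double-mutant glands. Of these double-mutant glands with enough cells, double mutant P40 replicate 4 alone was above the controls. In pericyte-like cells Mylk had 687 and 2147 CPM in control and 812, 987, 2695, 2869 and 3803 CPM in double-mutant glands. Outside both types Mylk was also read in other cells, of which Ucma-led basal and fibroblast-like cells are followed here. With glands pooled, Mylk had 239 CPM in control cells of a smaller basal-like sub-cluster led by Smoc2 and 140 CPM in Wif1-led double-mutant cells. Endothelial-like cells of control and double-mutant glands held 27 and 52 Mylk UMIs. In Ucma-led basal cells Mylk had between 37.1 and 261 CPM in 4 control glands (median 226, 40 UMIs), where Acta2 had 4 UMIs and Cnn1 had 1. After each cell was thinned to 500 UMIs, 10.1% of 228 Ucma-led control cells had a Mylk UMI and 0 of 228 an Acta2 UMI, against 0.387% of 517 immune-like control cells with a Mylk UMI. In fibroblast-like cells of both genotypes pooled, Mylk had 147 CPM (116 to 184, 76 UMIs). Which transcript of the locus these cells held cannot be told apart from 3′ tags.

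Of the actin-binding proteins, Cnn1 had values that kept the contractile types apart and Tagln did not. Cnn1 (calponin) had 1581, 2180, 2710 and 3377 CPM in myoepithelial-like cells of control and 557, 729, 882, 1122 and 2197 CPM in those of double-mutant glands. In pericyte-like cells Cnn1 had 0 and 409 CPM in control and 0, 47.8, 54.8, 225 and 325 CPM in double-mutant glands, from 4 UMIs in the control and 11 in the double-mutant glands. No pericyte-like value of Cnn1 reached the lowest myoepithelial-like one. That lowest value, 557 CPM, rests on 2 UMIs of double mutant P90 replicate 4, and the highest pericyte-like one, 409 CPM, on 4 UMIs. The gap between these 2 values is thus within counting error. How often other genes kept the types apart in this way was not counted. Tagln (SM22) had 1529, 1976, 2447 and 4128 CPM in myoepithelial-like cells of control and 557, 756, 802, 1295 and 1772 CPM in those of double-mutant glands. In pericyte-like cells Tagln had 549 and 2964 CPM in control and 439, 669, 1196, 2829 and 4155 CPM in double-mutant glands. Tagln levels of both types overlapped, as did those of the actins and myosin genes.

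Levels of the 2 contractile types were compared within glands by edgeR with the gland as a block, over the 5 glands that held at least 10 cells of each. Relative to myoepithelial-like cells, Myl9 (log2 fold change 2.06, standard error (SE) 0.28, adjusted p = 5.56e-05), Myh11 (1.57, SE 0.30, adjusted p = 0.000588) and Tagln (1.34, SE 0.38, adjusted p = 0.0105) were higher in pericyte-like cells and Cnn1 was lower (−1.58, SE 0.41, adjusted p = 0.00607). Acta2 (0.89, adjusted p = 0.0790) and Mylk (0.71, adjusted p = 0.121) did not pass, and Actg2 was too low to be tested. Thus 4 of 6 genes were called where 37.3% of the 362 genes tested were, with 23.8% of all higher and 13.5% lower. The scaling matters here: with library size alone the median of all genes moved from 0.01 to −0.71, 2 genes were called (Myl9 at 1.29 and Cnn1 at −2.28), and Mylk changed sign to −0.055. Acta2 changed sign to −0.044 with at least 5 cells per type. DESeq2 called 3, all but Tagln. Tagln lost its call without double mutant P90 replicate 4 (0.97) or double mutant P40 replicate 2 (0.83), while Myl9 was called under all 14 alternatives.

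**Figure D3:**
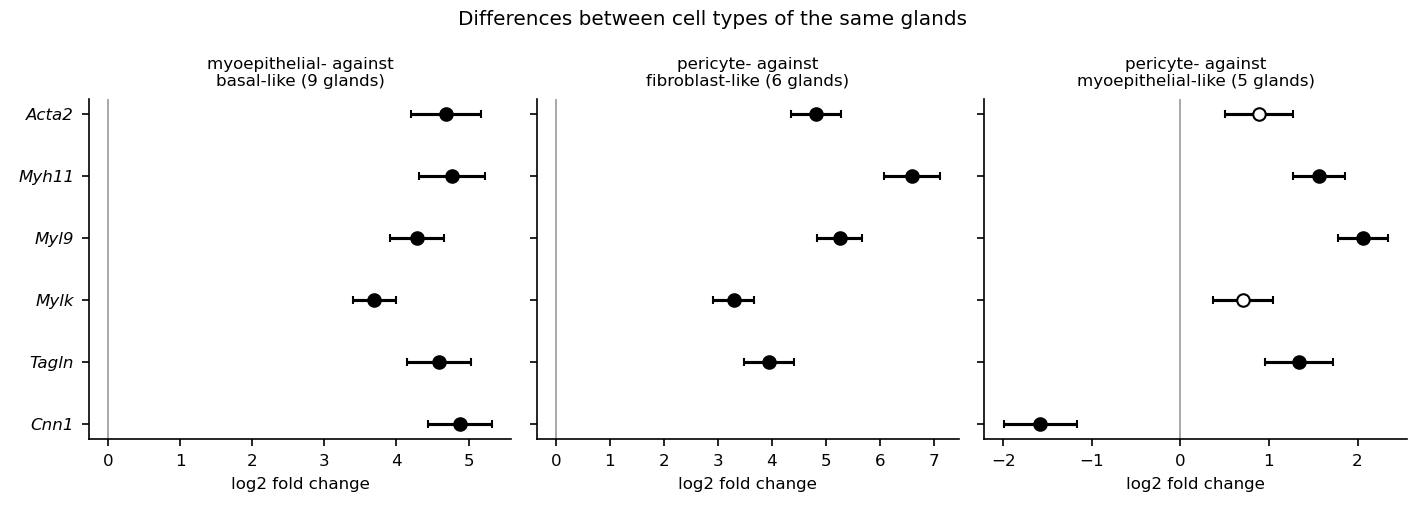
Log2 fold changes of the tested genes between cell types of the same gland (pericyte-like over myoepithelial-like, pericyte-like over fibroblast-like, myoepithelial-like over basal-like) from edgeR, with SE as bars and filled symbols for an adjusted p under 0.05. Cnn1 alone lies below 0 against myoepithelial-like cells, at −1.58, and all points of the other contrasts lie at 3.29 or higher.

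A measure that no scaling between cells touches is the share of each gene in the summed UMIs of the 7. In the same 5 glands Cnn1 made up 6.94% to 9.52% of these UMIs in myoepithelial-like cells (median 8.27%) and 0.610% to 1.90% in pericyte-like cells (median 1.02%), and it was lower in the latter in 5 of 5 glands (two-sided exact paired permutation test, p = 0.0625, the smallest that 5 pairs allow). Acta2 also took a smaller part in 5 of 5 glands, with medians of 37.3% and 31.2%, and Myh11 a larger part in 5 of 5, with 16.96% and 22.56% (exact permutation test, p = 0.0625 for each). Myl9 had medians of 11.6% and 23.8% and a larger part in 4 of 5 glands (exact permutation test, p = 0.188). The exception was double mutant P90 replicate 4, with 21 UMIs of the 7 genes in its myoepithelial-like cells. Shares add up to the whole, so that they show unequal levels and not which gene differed.

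**Figure D4:**
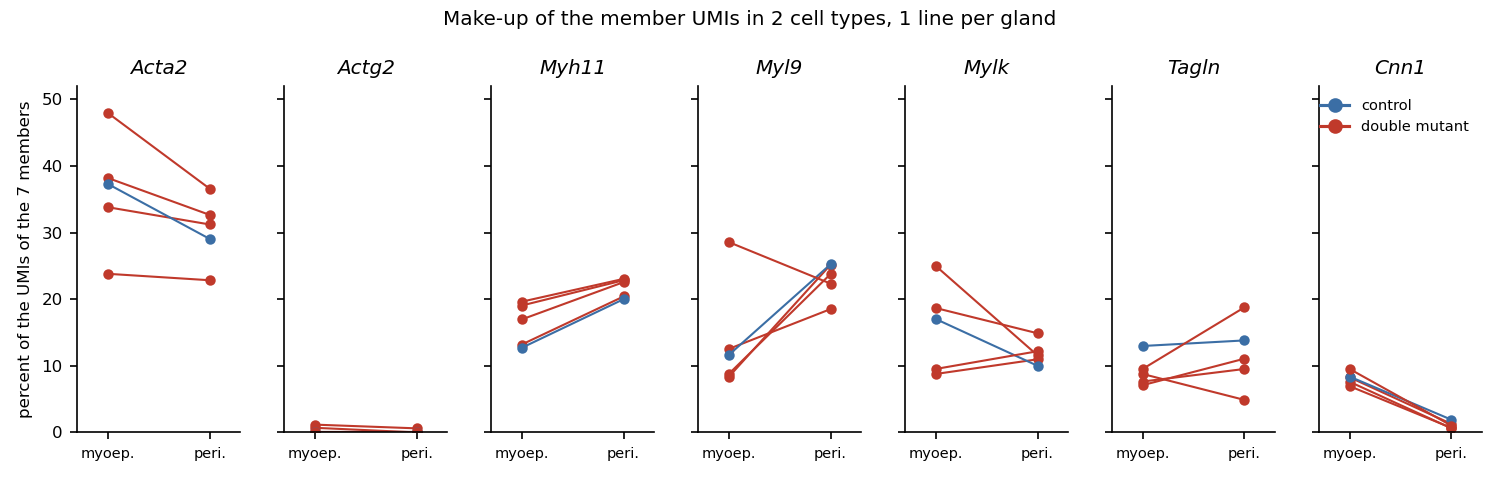
Share of each gene, in percent, in the summed UMIs of the 7 genes, for myoepithelial-like and pericyte-like cells of the 5 glands with at least 10 cells of each, with the 2 values of a gland joined by a line and colored by genotype. Cnn1 drops from 6.94% or more to 1.90% or less in each joined pair.

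Against the neighboring types of the same tissue layer the differences were larger. Pericyte-like cells exceeded fibroblast-like cells in 6 glands by 6.60 (SE 0.52) for Myh11, 5.25 (SE 0.43) for Myl9, 4.82 (SE 0.47) for Acta2, 3.95 (SE 0.46) for Tagln and 3.29 (SE 0.37) for Mylk on the log2 scale, with adjusted p of 1.50e-07 or less, and 5 of 5 genes were called higher where 13.7% of 520 genes were. All fibroblast-like cells of control and double-mutant glands held 5 and 26 UMIs of Acta2 and 2 and 5 of Myh11. They held 2 and 21 of Myl9 and 2 and 15 of Tagln. These genes thus entered the test mainly through pericyte-like cells, and the count of calls is not independent of that. Cnn1 and Actg2 were not tested. Myoepithelial-like cells exceeded basal-like cells in 9 glands by 3.69 (Mylk) to 4.88 (Cnn1), with 6 of 6 genes called higher where 19.1% of 1020 genes were. Against the Wif1-led basal cells alone, in 4 double-mutant glands, the differences were 3.03 (Myl9) to 3.88 (Myh11), again with 6 of 6 called where 7.80% of 718 genes were higher, while of 8 tested myoepithelial markers 2 were higher and 2 lower (median −0.054). Both contrasts of myoepithelial-like cells rest on a sub-clustering chosen with these levels in view. Their counts of calls are thus not independent of that choice. Wif1-led cells of all double-mutant glands held 21 Cnn1, 41 Tagln and 47 Myh11 UMIs, against 171, 155 and 354 in myoepithelial-like cells. Genes of the list thus entered the contrast with Wif1-led cells mainly through myoepithelial-like cells. Its count of calls is not independent of that either. With at least 20 cells per type the contrast with basal-like cells called 3 genes. No gene of the list reached the filter in the contrast of Wif1-led with Ucma-led basal cells.

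Single cells were read for how many of the 7 genes they showed at 1 depth. After thinning to 500 UMIs, the median myoepithelial-like cell of control glands (73 cells) had a UMI of 5 of the 7 genes, and that of double-mutant glands (95 cells) had 3. At least 4 genes were seen in 83.6% and 48.4% of these cells, and none in 1.37% and 9.47%. Pericyte-like cells had a median of 3 in both genotypes (68 and 75 cells). Acta2 was seen in 95.9% of control and 77.9% of double-mutant myoepithelial-like cells, Mylk in 75.3% and 60%, Cnn1 in 64.4% and 40%, Myl9 in 60.3% and 54.7% and Actg2 in 5.48% and 5.26%. By gland, over 4 glands of each genotype with at least 10 such cells, the shares overlapped for Mylk (61.5% to 81.8% and 45.5% to 92.9%), Myl9 (54.5% to 63.6% and 26.7% to 85.7%), Acta2 (90.9% to 100% and 59.4% to 100%) and Actg2 (0% to 18.2% in both) and did not for Cnn1 (54.2% to 90.9% and 33.3% to 50%), Myh11 (75% to 81.8% and 33.3% to 71.4%) and Tagln (45.5% to 81.8% and 18.8% to 35.7%). How often the shares of other genes did not overlap was not counted, so that these ranges are descriptions only. Most of these control glands were taken at P90 and most double mutants at P40. Thinning kept 73 of 76 control and 95 of 130 double-mutant cells. Without thinning the pooled shares of Acta2, Mylk and Cnn1 were 96.1% and 73.1%, 88.2% and 62.3%, and 81.6% and 43.1%. In ductal-like cells, which should lack the genes, Acta2 was seen in 0.270% and 0.341% of thinned cells. Cells of 1 gland are not independent, and no test was made over cells.

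Within myoepithelial-like cells all 6 genes tested had lower fitted levels in double-mutant glands (4 control and 5 double-mutant glands), and none passed the adjusted threshold. The log2 fold changes were −1.51 (SE 0.48, adjusted p = 0.153) for Cnn1, −1.34 (SE 0.64, adjusted p = 0.431) for Acta2, −1.28 (SE 0.59, adjusted p = 0.406) for Mylk, −1.20 (SE 0.51, adjusted p = 0.377) for Myh11, −1.09 (SE 0.50, adjusted p = 0.406) for Tagln and −0.44 (SE 0.47, adjusted p = 0.828) for Myl9. Their median was −1.24, against 0.02 over the 299 genes tested. In the same cells 3 of 6 tested luminal markers were called higher (median 3.38) and 1 of 3 acinar markers lower (median −2.25), while the 3 basal markers (median −0.79) and the 5 myoepithelial markers (−0.51) had no call, and their part in these values was not tested. By edgeR 0 of 6 were called (4 at an unadjusted p under 0.05), by DESeq2 also 0, where edgeR called 2.68% of all genes. Each gene kept its direction in every alternative in which it was tested. Without double mutant P40 replicate 4, which had the highest values of all 6 among the 5 fitted double-mutant glands, Cnn1 was called. Double mutant P40 replicate 3 was not in the main fit, as its 7 myoepithelial-like cells were under the minimum per gland. They held 256 of the 779 Acta2 and 61 of the 171 Cnn1 UMIs of double-mutant myoepithelial-like cells. With glands pooled, Acta2 of double-mutant myoepithelial-like cells had 6683 CPM with that gland and 5065 CPM without it, against 8690 CPM in control. A coarser sub-clustering (resolution 0.2) was named without asking for a larger share of the myoepithelial than of the basal markers. Its myoepithelial-like cells reached 8 of 14 myoepithelial and 9 of 11 basal markers, so that the main rule would not have named them so. They took in Wif1-led cells and rose to 5.92% of double-mutant cells. There 6 of 6 were called lower, where 9.11% of genes were. The count of calls thus depends on where the border between myoepithelial-like and basal-like cells is set and on the naming rule.

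Among basal-like cells (9 control and 13 double-mutant glands) Mylk was lower in double-mutant glands, with 34.5 to 603 CPM (median 258) in control and 16.1 to 349 CPM (median 143) in double-mutant glands, which overlap (log2 fold change −1.18, SE 0.35, adjusted p = 0.0348, 9.42% of genes called, 1.68% lower). Most basal-like cells of double-mutant glands were Wif1-led and most of control glands Ucma-led. The Mylk call was lost without a filter on low counts, with at least 20 cells, with the number of cells as a covariate, with library size alone and at sub-cluster resolutions 0.2 and 0.8. Acta2 (−1.04), Tagln (−0.83), Myh11 (−0.74) and Myl9 (−0.50) did not pass (adjusted p from 0.274 to 0.694). Within the basal-like cells, Acta2 was seen in 22.9% of control and 12.3% of double-mutant cells of the smaller Smoc2-led sub-cluster (109 and 162 cells, unthinned), against 0.791% of Ucma-led control cells, so that basal-like cells differed among themselves in these genes.

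In pericyte-like cells (2 control and 5 double-mutant glands), the 5 genes tested had log2 fold changes between −0.29 and 0.32 and adjusted p of 0.994 by edgeR, and 0 of 5 were called (0 at an unadjusted p under 0.05, 0 by DESeq2), where 1.91% of genes were. Tagln changed sign in 12 of 17 alternatives and Acta2 in 5 of 17. With 2 control glands these values have SE of 0.52 to 0.67. In fibroblast-like cells (2 and 12 glands) Mylk alone could be tested, at 2.86 (SE 1.33, adjusted p = 0.930), and no gene of 620 was called by edgeR (26 at an unadjusted p under 0.05, 2 by DESeq2).

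In whole glands, where the level of a gene also follows the number of its cells, no gene of the list passed the test between genotypes. Fewer cells of a type and less RNA per cell cannot be told apart in such sums. In controls Acta2 had 4.59 to 73.2 CPM at P40 with a median of 25.9 and 5.36 to 103 CPM at P90 with a median of 39.4. In double mutants it had 42.9 to 325 CPM at P40 with a median of 52.2 and 1.40 to 112 CPM at P90 with a median of 36.4. All 4 groups overlapped, and the lowest double mutant at P40 was above the median of either control group. Cnn1 ranged from 1.58 to 18.9 (median 5.59), 0.475 to 20.7 (median 7.73), 4.70 to 44.9 (median 8.11) and 0 to 13.01 CPM (median 2.28) in the same order. Myh11 had medians of 11.5, 20.3, 30.2 and 27.3 CPM, Myl9 of 7.38, 19.3, 24.7 and 28.4, Mylk of 10.8, 22.1, 31.4 and 29.6 and Tagln of 4.76, 16.8, 11.6 and 2.89. Actg2 did not exceed 2.87 CPM except in double mutant P90 replicate 4 (8.73 CPM). The highest value of the other 6 genes was in each case that of double mutant P40 replicate 2, in which 5.35% of cells were myoepithelial-like and 3.52% pericyte-like. At P90 the double-mutant glands fell apart: Acta2 had 1.40, 5.45 and 1.53 CPM in replicates 1, 6 and 7, where 0%, 0.0907% and 0% of cells were myoepithelial-like, and 36.4 CPM or more in the other 4.

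**Figure D5:**
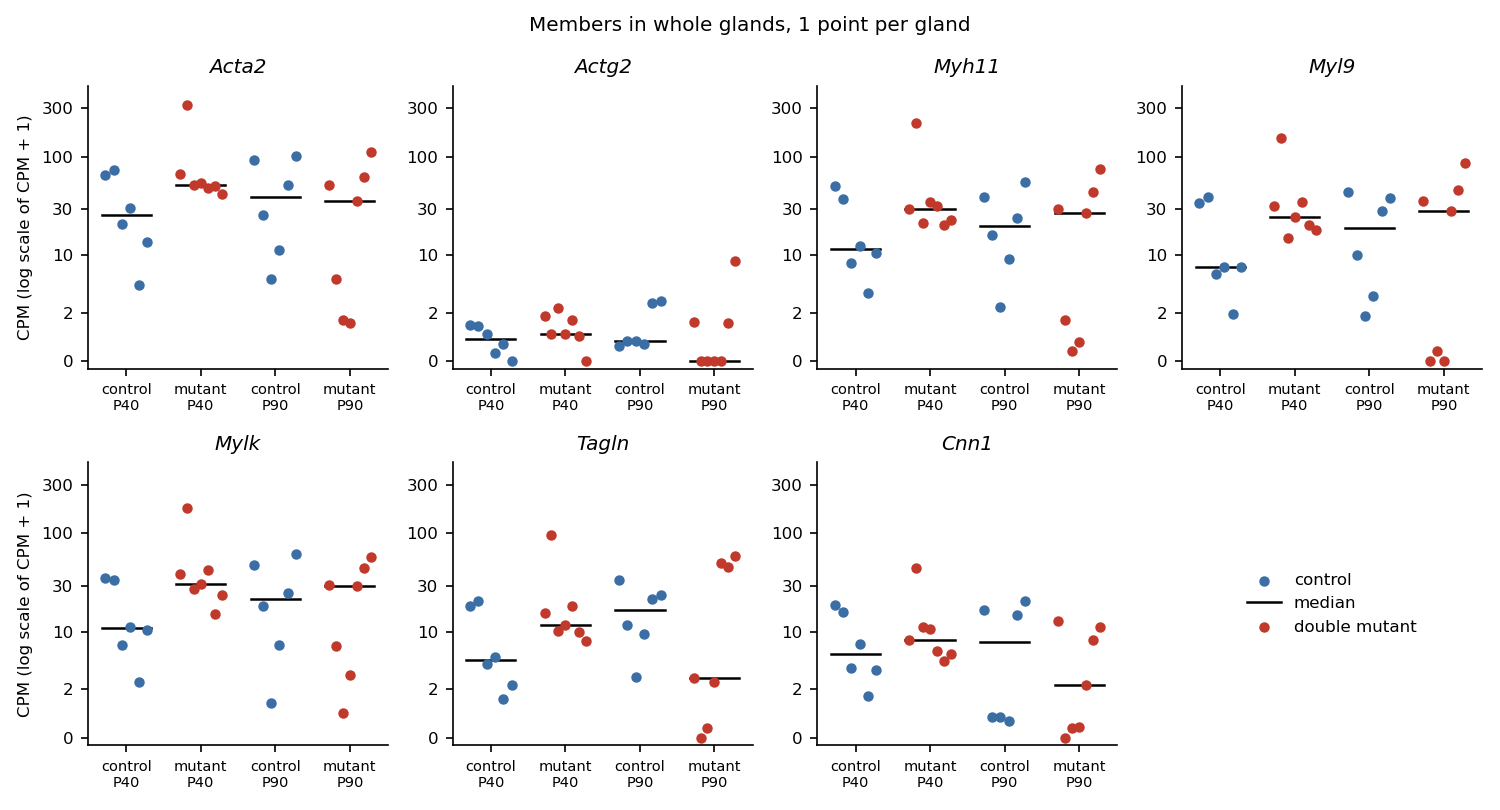
CPM of each of the 7 genes, on a log scale of CPM + 1, in the 26 Drop-seq glands by genotype and stage, with 1 point per gland and a line at the median of the group. The 4 groups overlap for each gene, and the highest point of Acta2, at 325 CPM, is double mutant P40 replicate 2.

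With sex and stage as covariates, edgeR gave log2 fold changes of double-mutant over control glands of −0.87 (SE 0.51, adjusted p = 0.216) for Cnn1, −0.30 (SE 0.49) for Acta2, −0.16 (SE 0.49) for Myh11, 0.00 (SE 0.52) for Mylk, 0.03 (SE 0.58) for Myl9 and 0.15 (SE 0.54) for Tagln, the latter 5 with adjusted p from 0.691 to 0.998. By edgeR 0 of 6 were called (0 at an unadjusted p under 0.05, 0 by DESeq2), where 22.0% of 10488 genes were. The sign of Mylk, Myl9 and Tagln changed under other settings. Over the same glands the myoepithelial markers were called higher in 7 of 10 tested and the pericyte markers in 2 of 5. Their summed levels ranged from 14.1 to 276 CPM in control and from 39.7 to 939 CPM in double-mutant glands for the myoepithelial list, and from 5.44 to 51.2 and from 19.8 to 316 CPM for the pericyte list. Among cells, myoepithelial-like cells were 0.695% ± 0.761 of control and 1.11% ± 1.31 of double-mutant cells (SD, n = 12 and 14, two-sided permutation test, adjusted p = 0.406) and pericyte-like cells 0.663% ± 0.453 and 1.02% ± 0.933 (adjusted p = 0.337). The part of cell numbers in the whole-gland levels was not tested. In the 5 batches with both genotypes, Acta2, Tagln, Myl9, Mylk and Myh11 had higher means in double-mutant glands in 4 of 5 and Cnn1 in 2 of 5. In batches 12 and 13 the controls were taken at P40 and the double mutants at both stages. Batches 9, 13 and 14 had 1 gland of 1 of the genotypes. How often other genes were higher in 4 of 5 batches was not counted.

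By stage, the fitted differences changed side but did not pass. At P40, 5 of 6 genes had positive values (Mylk 0.75, SE 0.58, Cnn1 −0.14, SE 0.63), and at P90 all 6 had negative values, from −0.33 (Tagln) to −1.998 (Cnn1, SE 0.77, adjusted p = 0.0999), with 0 of 6 called at either stage by edgeR (0 and 1 at an unadjusted p under 0.05, 0 and 0 by DESeq2), where 1.36% and 8.07% of 11420 genes were. The test of the difference between stages gave values from −0.89 (Tagln) to −1.85 (Cnn1), with adjusted p from 0.904 to 0.986 and 0.00876% of genes called, so that a difference between the stages was not shown. In double-mutant glands alone, levels at P90 had negative fitted differences from P40 for all 6, with −2.11 for Cnn1 (SE 0.74), −1.67 for Acta2 (SE 0.64), −1.41 for Myh11 (SE 0.66), −1.37 for Mylk (SE 0.59), −1.01 for Myl9 (SE 0.76) and −0.17 for Tagln (SE 0.73), and adjusted p from 0.344 to 0.969. No gene of 11420 was called in that comparison by edgeR (1122 at an unadjusted p under 0.05, among them 4 of the 6, and 27 by DESeq2, none of the list). Without the filter on low counts 5 of the list were called, where 2.15% of 29219 genes were. With batch as a factor, 4 of the 5 positive values at P40 and 5 of the 6 negative values at P90 changed sign. In control glands the 6 values lay between −0.26 and 0.72, 0 were called where 5.04% of genes were, and stage and batch cannot be told apart.

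The bulk libraries, 1 per genotype and without replicates, gave 34515744 reads in genes for the control gland at P70 and 34729551 for the double-mutant gland at P100. All 7 genes were lower in the double-mutant library. Acta2 had 1938 and 740 reads, a ratio of CPM of 0.379 (95% counting interval 0.348 to 0.413), Actg2 19 and 8 reads (0.418, 0.158 to 1.001), Myh11 2054 and 807 (0.390, 0.359 to 0.424), Myl9 604 and 308 (0.507, 0.440 to 0.582), Mylk 806 and 330 (0.407, 0.357 to 0.463), Tagln 704 and 401 (0.566, 0.4995 to 0.641) and Cnn1 481 and 179 (0.370, 0.310 to 0.440). Per length, in reads per base scaled to a sum of 1000000 over all genes, the control library had 27.7 for Acta2, 13.2 for Myl9, 11.3 for Tagln, 7.87 for Myh11, 5.16 for Cnn1, 2.02 for Mylk and 0.309 for Actg2, and the double-mutant library had 10.7, 6.80, 6.48, 3.12, 1.94, 0.833 and 0.131 with the same order. Of the 7 genes 5 were at or under a ratio of 0.5 per length, as were 9.03% of 13971 genes, and the median log2 ratios were −1.28 and −0.29. Of the 14 myoepithelial markers 10 were lower in the double-mutant library (median log2 ratio −0.53), of the 12 pericyte markers 9 (−0.22), of the 12 basal markers 10 (−0.76, with 1 higher) and of the 10 endothelial markers 10 (−0.22), whereas 7 of 12 fibroblast markers were higher (0.052), and their part in the lower levels was not tested. Genotype, age and animal cannot be told apart with 1 library each, and the ages differ from those of the Drop-seq glands.

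The CITE-seq glands at P70, 2 of each genotype, held few UMIs of these genes. Acta2 had 2.29 and 4.08 CPM in control and 8.17 and 17.9 CPM in double-mutant glands, Mylk 2.72 and 4.003 against 9.98 and 16.4, Myl9 3.43 and 4.08 against 5.97 and 11.8 and Tagln 0 and 0.907 against 1.82 and 4.48. These 4 genes were higher in both double-mutant glands, as were 59.2% of 12038 genes, and 2 against 2 glands allow no exact permutation p under 0.333. Cnn1 had 1 and 2 UMIs in control and 0 in both double-mutant glands (lower without overlap, as for 7.85% of genes), where 3 UMIs would be 2.72 and 4.48 CPM. Krt14, a keratin of the cells in which Cnn1 was highest, had 18.9 and 23.6 CPM in control and 0 and 9.08 CPM in double-mutant glands. Krt5, of the same marker lists, overlapped, with 3.43 and 4.99 against 2.98 and 6.35 CPM. The part of these cells in the Cnn1 counts was not tested. Myh11 overlapped, with 2.29 and 5.44 against 1.82 and 4.48 CPM, and so did Actg2, with 7.25 and 7.43 against 7.26 and 19.4 CPM.

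Other genes of the pathway were followed in lists. In whole glands by genotype, 5 of the 14 tested genes of the contractile apparatus rose and 0 fell, led by Flna, the actin crosslinker filamin A (1.54, SE 0.36, adjusted p = 0.00488), Pdlim7 (1.29, SE 0.31, adjusted p = 0.00542) and Actn1, a non-muscle α-actinin (1.10, SE 0.20, adjusted p = 0.000666), and the others were Csrp1 (1.06) and Tagln2 (0.43). Over the same glands 10 of 10 tested immune markers, 10 of 11 fibroblast markers and 7 of 9 endothelial markers were called higher, and their part in these lists was not tested. Of the 7 tested transcriptional regulators, Mef2c (1.14, SE 0.41, adjusted p = 0.0484), Mkl1 (1.09, SE 0.28, adjusted p = 0.00892) and Tead1 (0.98, SE 0.27, adjusted p = 0.0125) rose. Among 6 tested genes of non-muscle actin and myosin, Myh9 rose (0.99, SE 0.21) and Actg1 fell (−0.89, SE 0.21). Of 3 tested receptors Adra1a, an adrenergic receptor, fell (−0.97, SE 0.30). For higher calls the background was 14.4% of genes and for lower calls 7.56%. In pericyte-like against myoepithelial-like cells, 5 of 5 tested genes of calcium and phosphatase control were higher, where 23.8% of all genes were, among them Pln, which encodes phospholamban (6.03, SE 1.05, adjusted p = 0.000656), and so were 4 of 6 of the contractile apparatus, among them Cald1, which encodes caldesmon (1.93, SE 0.30). Pln and Cald1 were picked after their values were seen.

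The 7 genes varied together over cell types. Over 59 profiles of clusters split by genotype, the correlations of log2(CPM + 1) between pairs of the 7 were between 0.64 (Mylk with Actg2) and 0.95 (Myl9 with Myh11). Actg2, with its few UMIs, gave the lowest value for each partner. The genes outside the list most like their mean, of 8681 ranked, were Tpm2, a tropomyosin (r = 0.951), Tspan2 (0.904), Tgfb1i1 (0.902), Synpo2 (0.893) and Pgm5 (0.886). Tspan2 was among the leading genes of the myoepithelial-like sub-cluster, and Tpm2, Synpo2 and Pgm5 were held out of the clustering. Profiles share libraries and differ in depth, and these are descriptions without a test. Tpm2 had 4420 CPM in myoepithelial-like cells of control and 3106 in those of double-mutant glands and 959 and 1788 CPM in pericyte-like cells.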

How the data were processed

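For the 26 Drop-seq and 4 CITE-seq libraries the authors deposited tables of UMI counts per gene and cell barcode, made with Drop-seq tools and STAR on mm10 with the GENCODE vM7 annotation and the Cre and EYFP sequences, for barcodes above the knee of the read distribution. For the 2 bulk libraries the authors deposited read counts per gene from featureCounts. The tables of surface protein tags were not used. By the study's methods, human HEK cells had been added to the CITE-seq cells and were then recognized by human reads and removed, and whether the deposited tables were written after that step was not tested.

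Barcodes with at least 100 genes and under 15% mitochondrial UMIs were kept (23346 Drop-seq cells), and doublets were called (136, 0.583%) and kept, with their removal as an alternative. Clustering (scanpy 1.11.5, leidenalg 0.10.2) used 2000 variable genes, 30 principal components, 20 neighbors and resolution 1, with 25 contractile genes held out. A name needed 3 markers at 2-fold and in 10% of cells, and basal and myoepithelial cells were separated by sub-clustering at resolution 0.5. This resolution was the lowest at which a sub-cluster held a larger share of the myoepithelial than of the basal markers, and 8 sub-clusterings and 4 naming rules were compared with the levels of the 7 genes in view. The members and lists were chosen with earlier results of these data known. Of further genes, the 3 with the largest called change of each list were named, and the 5 most alike in profile. A further gene that this rule names was left out and is not reported here.

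For each gland, and each type of at least 10 cells in it, UMIs were added up and tested with edgeR 4.0.16 (R 4.3.3) by the quasi-likelihood test with TMM factors, filterByExpr and Benjamini-Hochberg adjustment over all genes tested at 0.05. Fits by genotype had sex and stage as covariates and those between types had the gland as a block. DESeq2 1.42.0, other filters, scalings, cell minimums and clusterings, batch terms and leaving out libraries were alternatives. Scripts were tested on simulated data. Cell shares per gland were tested by permutation (two-sided, 100000 resamples, adjusted over 4 types). Counting intervals are at 95%, and they and the limit of 3 counts cover counting error only. Replicates are separate glands by label, so that p-values measure the spread between these samples.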

Additional observations from a re-analysis of the deposited data

Results flagged for a closer look

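Of 56 groups of 4 to 10 glands looked at, 9 held a value that stood apart from the others by the gap between it and its neighbor. Chance gives about 1 in 20 for independent, normally distributed values. These values were counts of genes that varied together in the same glands, so that the rate does not hold strictly here. Of the 9, 6 were the whole-gland levels of double mutant P40 replicate 2. Acta2 had 325 CPM there, against 42.9 to 68.0 in the other 6 glands of the group. Myh11 had 214 CPM (others 20.6 to 35.7), Myl9 155 (others 15.05 to 35.4), Mylk 177 (others 15.4 to 43.1), Tagln 95.8 (others 7.88 to 18.5) and Cnn1 44.9 (others 4.70 to 11.2). This gland also held the largest shares of myoepithelial-like (5.35%) and pericyte-like cells (3.52%), and the part of these shares in the levels was not tested.

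Actg2 stood apart in 3 groups. In whole glands it had 8.73 CPM in double mutant P90 replicate 4 and 0 to 1.45 in the other glands of the group. In basal-like cells it had 100.5 CPM in control P90 replicate 5 and 0 to 34.3 in the other 8 control glands. In pericyte-like cells it had 54.8 CPM, which is 1 UMI, in double mutant P40 replicate 6 and 0 in the other 4 double-mutant glands.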

How the results depend on the processing

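Of the fitted changes of single genes, without those by genotype in pericyte-like cells, 24 passed the threshold newly under an alternative. A further 22 no longer passed and 37 changed sign. The same label went to 648 values, among them a few shares of cells with a UMI taken without thinning. Changes of sign by genotype in pericyte-like cells are given above. In whole glands by genotype, the changes of sign were around 0: Tagln was −0.022 without double mutant P90 replicate 4 and −0.11 without double mutant P40 replicate 2. Myl9 was −0.053 without the filter on low counts, −0.21 and −0.13 without these glands, −0.0041 without the 2 libraries of contrary sex label and −0.033 with all barcodes. Mylk was −0.068 without the filter, −0.11 and −0.18 without these glands and −0.065 with all barcodes. With batch as a factor, values at P40 were −0.35 (Acta2), −0.22 (Tagln), −0.20 (Myl9) and −0.36 (Myh11), those at P90 0.28 (Acta2), 1.08 (Tagln), 1.19 (Myl9), 0.65 (Mylk) and 0.40 (Myh11), and those of the difference between stages 0.63 (Acta2), 1.299 (Tagln), 1.39 (Myl9), 0.51 (Mylk), 0.76 (Myh11) and 0.46 (Cnn1). By stage in double-mutant glands, Tagln was 0.0045 by DESeq2, 0.093 without the 2 libraries of contrary sex label and 0.39 without double mutant P40 replicate 2. By stage in control glands, Acta2 was 0.34 and Myh11 0.19 with the replicate block, and Myl9 −0.046 without the filter and −0.037 by DESeq2.

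Without the filter, 4 of the genes were called at P90 (6.19% of all genes), 5 by stage in double-mutant glands (2.15%) and 3 for the difference between stages (0.647%). With batch as a factor 3 were called by stage in double-mutant glands (0.0263% of all genes, 4 in number). In basal-like cells 0 were called without the filter, with at least 20 cells, with the number of cells as a covariate, with library size alone and at sub-cluster resolutions 0.2 and 0.8, where Acta2 was 0.35. In myoepithelial-like cells by genotype, leaving out 1 gland gave 0 to 1 calls and resolution 0.2 gave 6. Between pericyte-like and myoepithelial-like cells 2 were called without the filter, without the gland block and with library size alone. There Acta2 was −0.044 and Mylk −0.019 with at least 5 cells, and Mylk −0.055 with library size alone. Between myoepithelial-like and basal-like cells 3 were called with at least 20 cells. The share of myoepithelial-like cells differed by 5.19 percentage points at resolution 0.2, that of basal-like cells by 3.94 with permutation within batches (adjusted p = 0.0301) and by −0.56 at resolution 0.2. The cause of these changes was not tested.

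The number of genes called by genotype was 2308, with 3998 under the replicate block and 300 with batch as a factor. At P40 it was 155, with 1313 without the filter, 923 under the block and 37 without double mutant P40 replicate 2. At P90 it was 922, with 1809, 1854 under the block and 368 without the 2 libraries of contrary sex label. Replicate numbers did not pair the glands: 12 same-numbered pairs had correlations of −0.33 to 0.50 (5 over 0.1), and 2 of 12 control glands correlated best with their own number. The block called 0 of the 7 genes by genotype. The gate on markers per cell gave no values for pericyte-like cells. Few cells of a type per gland limit each contrast within types.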

Other observations

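Actg2 was the one gene of the 7 with a higher pooled level in the CITE-seq than in the Drop-seq libraries. It had 50 UMIs in 47 of 2535 CITE-seq cells, at most 2 in a cell, and 8.73 CPM over all cells, against 69 UMIs in 55 Drop-seq cells and 0.962 CPM. Of these cells, 2 and 31 also held an Acta2 UMI. Acta2 itself had 34 UMIs in 27 cells (5.94 CPM) in CITE-seq and 2990 UMIs in 666 cells (41.7 CPM) in Drop-seq. By gland, Actg2 had 7.43 and 7.25 CPM in control and 7.26 and 19.4 CPM in double-mutant CITE-seq glands. Human HEK cells had been added to the CITE-seq cells by the study's methods, and whether any of these 47 barcodes belonged to them was not tested. All 4 CITE-seq libraries held UMIs of both Xist and Y-linked genes.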
